A study of Drosophila melanogaster with 3 samples.

Results

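The 10 genes at the core of apoptosis in *Drosophila melanogaster* were taken for a closer look at embryos wounded with a laser: *rpr*, *hid*, *grim*, *skl*, *Dronc*, *Drice*, *Dcp-1*, *Dark*, *Diap1* and *Diap2*. They were picked by name, and a probe was assigned to a gene where the annotation of the array platform gave it that gene alone, under its current symbol or an older one. By this rule 6 of the 10 genes had a probe, out of 8247 genes measured in all. *grim* had 2 probes, and *skl*, *Dronc*, *Dark*, *Dcp-1* and *Diap2* had 1 each, so there were 7 probes among the 11887 tested. *rpr*, *hid*, *Drice* and *Diap1* were not analysed here.

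Wild-type embryos wounded by laser ablation were compared with unwounded wild-type embryos on 3 arrays (A, B and C), each with 2 colours. On every array the unwounded embryos carried Cy3 and the wounded embryos carried Cy5, so a dye effect and an effect of wounding cannot be told apart. The sources used here do not give the age of the embryos, the time after wounding or the number of embryos per array, and nothing in the labels says that the arrays came from separate collections. The p-values then reflect the spread among these 3 arrays alone, and that spread may be technical.

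In flies, as in other animals, apoptosis is carried out by caspases, proteases made as inactive precursors. The initiator caspase Dronc is activated on a platform built by Dark, and it then cleaves the effector caspases Drice and Dcp-1. Inhibitor of apoptosis proteins (IAPs), foremost Diap1, bind caspases and hold them in check. The IAP antagonists Rpr, Hid, Grim and Skl bind the inhibitors through a short motif at their amino terminus and free the caspases. The antagonist genes are controlled largely through their transcription, whereas caspases are controlled largely by cleavage, which an array of RNA does not measure. In the reference annotation (Release 6) the genes lie in the order *hid*, *grim*, *rpr*, *skl*, with 0 protein-coding genes annotated between *grim* and *rpr* or between *rpr* and *skl*. The measured antagonists *grim* and *skl* are therefore the neighbours of *rpr* on either side.

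The deposited values are read here as ratios of the colours with a minus sign in front, which was removed before log2 was taken. Which colour is the numerator is not stated. The study's title names wounded embryos first whereas the titles of the samples name unwounded embryos first, so values are worded as high ratio (above 1, or above 0 on the log2 scale) and low ratio. If the ratio is Cy5 over Cy3, high means more RNA in wounded embryos, and otherwise every high and low below exchanges. These are RNA ratios of whole embryos, in which a change in the number of cells of a type and a change in RNA per cell cannot be told apart. They hold no level, so the genes cannot be ranked by abundance.

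The comparison asked whether RNA of the apoptosis genes differed between wounded and unwounded embryos. None of the 7 probes passed the test. Ratios ran from 0.940 to 1.18 over the 21 values. Of the 6 genes, 5 had a mean ratio above 1 (*grim*, *skl*, *Dronc*, *Dark* and *Diap2*) and 1 had a mean ratio below 1 (*Dcp-1*). Each probe's 3 log2 ratios were tested against 0 with limma, which moderates each probe's variance by that of all probes, and p-values were adjusted by the Benjamini-Hochberg method over all 11887 probes. Adjusted p ran from 0.306 to 0.741 over the 7 probes in limma, and 0 of them had an unadjusted p under 0.05.

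That count stands against a small share of calls over the whole array. At an adjusted p of 0.05 in limma, 184 probes passed, which is 1.55% of those tested. High ratios made up 0.513% and low ratios 1.03%. At an unadjusted p under 0.05 the share was 18.4%. Against such a share, 0 of 7 is close to the background. The 184 calls fell to 0 without array A, to 0 without array B and to 1 without array C. Tests on gene means, the average of a gene's probes, called 1.96% of 8247 genes, with 18.4% at an unadjusted p under 0.05, and 0 of the 6 apoptosis genes by either measure.

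*grim* encodes an IAP antagonist that is transcribed in cells bound to die. Its probe Duke_25 had ratios of 1.10, 1.038 and 1.18 on arrays A, B and C. The values on arrays A and C were the higher ones, and array B lay closest to 1. The mean log2 ratio was 0.14 ± 0.09 (SD, n = 3), with a 95% interval from −0.013 to 0.30 and a limma adjusted p of 0.306. This was the highest mean of the 7 probes, above 85.8% of all tested probes. The second probe, the cDNA clone RE28551, had ratios of 1.076, 1.002 and 1.069. It too was lowest on array B, where it was all but equal to 1. Its mean log2 ratio was 0.068 ± 0.057 (SD, n = 3; limma adjusted p = 0.579). Both probes of *grim* thus had the same sign on each array, and their average gave a log2 ratio of 0.11 ± 0.07 (SD, n = 3; limma adjusted p = 0.396 over gene means).

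*skl*, or sickle, encodes a further antagonist with the same kind of motif. Its probe RE14076 had ratios of 1.039, 1.016 and 1.03. The 3 arrays were nearly alike, and the spread of this probe was lower than that of all but 1.91% of tested probes. The mean log2 ratio was 0.040 ± 0.016 (SD, n = 3). The 95% interval, which rests on the moderated variance, ran from −0.094 to 0.17 (limma adjusted p = 0.741). *skl* was the measured gene with the mean nearest to 0.

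*Dronc* encodes the initiator caspase, and *Dark* encodes its activating adaptor, the fly counterpart of mammalian Apaf-1. The *Dronc* probe LP09975 had ratios of 1.111, 1.118 and 1.008. The *Dark* probe GH17715 had ratios of 1.062, 1.135 and 1.014. In both genes array C was the lowest and close to 1, unlike *grim* and *skl*, which were lowest on array B. Array B was the highest for *Dark*. For *Dronc* arrays A and B were nearly equal. With each array centred on its median, *Dronc* had log2 ratios of 0.149 on array A and 0.145 on array B. Likeness of pattern over 3 arrays was not tested. The mean log2 ratio was 0.11 ± 0.08 for *Dronc* (SD, n = 3; limma adjusted p = 0.412). For *Dark* it was 0.097 ± 0.082 (SD, n = 3; limma adjusted p = 0.461). The partners of the caspase-activating platform differed from each other by 0.012 ± 0.047 on the log2 scale (SD, n = 3), less than the spread between arrays.

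*Dcp-1* encodes an effector caspase, a protease that cuts cellular proteins once apoptosis is under way. Its probe LD13945 had ratios of 1.004, 0.949 and 0.940. Array A lay at 1 and arrays B and C below it. The mean log2 ratio was −0.053 ± 0.051 (SD, n = 3), with a 95% interval from −0.19 to 0.088 and a limma adjusted p of 0.672. On each array *Dcp-1* was the lowest of the 7 probes.

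*Diap2* encodes an IAP with ubiquitin ligase activity that binds effector caspases and also acts in the Imd immune pathway. Its probe LD34777 had ratios of 1.157, 1.042 and 1.039. Array A stood apart from arrays B and C, which were alike. The mean log2 ratio was 0.11 ± 0.09 (SD, n = 3; limma adjusted p = 0.418), close to the values of *grim* and *Dronc*.

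**Figure D1:**
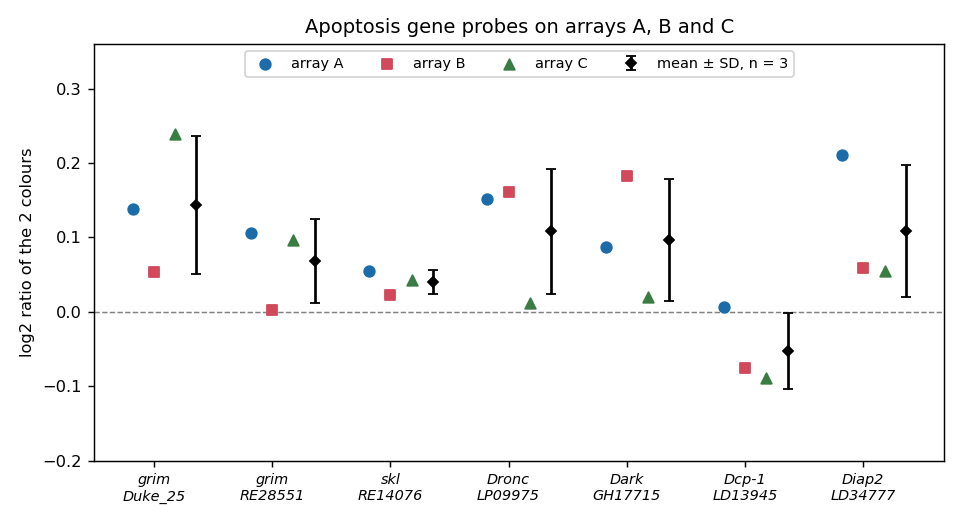
Log2 ratio of the 2 colours (vertical axis) for the 7 probes of the 6 measured apoptosis genes on array A (circles), array B (squares) and array C (triangles), with the mean and SD over 3 arrays (diamonds). All points but those of *Dcp-1* on arrays B and C lie above 0, and the highest, *grim* probe Duke_25 on array C, is at 0.24.

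By gene mean the order from high to low log2 ratio was *Diap2*, *Dronc*, *grim*, *Dark*, *skl* and *Dcp-1*. The first 4 lay between 0.097 and 0.11, and neighbours among them differed by less than their spread between arrays. The ranges of 10 of the 15 gene pairs overlapped. The other 5 were the pairs with *Dcp-1*, whose highest value (0.0058 on array A) lay just under the lowest of any other gene (0.011, *Dronc* on array C). *Diap2* was higher than *Dcp-1* by a log2 difference of 0.16 ± 0.04 (SD, n = 3), *Dronc* by 0.16 ± 0.07 and *grim* by 0.16 ± 0.09, each on 3 of 3 arrays. An exact sign-flip test over 3 arrays can give no p below 0.25, so these pairs were not tested. How often the ranges of gene pairs overlap over the whole array was not counted. By single probe, *grim* RE28551 (0.0029 on array B) lay under the highest *Dcp-1* value. With each clone library centred, *Dcp-1* was at 0.041 on array A. On array B *skl* (0.027), *Diap2* (0.029) and both *grim* probes (−0.034 and 0.0072) then lay under that value, as did *Dronc* (0) on array C. *Dark* stayed above it, with 0.048 as its lowest value. *Dcp-1* was singled out as the lowest gene in these same values, so the counts and differences are a description.

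The values of 6 of the 7 probes lay above 0 on all 3 arrays, the exception being *Dcp-1*. Of all tested probes 22.0% did so. The median of the 6 gene means was 0.10, against −0.00017 over all 8247 gene means. The shift was small on each array: arrays A, B and C gave the 7 probes medians of 0.11, 0.054 and 0.043, against medians of 0.0029, 0.016 and −0.0029 for all tested probes. The number of the 7 probes above their array's median was 7, 5 and 6 in the same order. With each array centred on its own median 5 of the 7 probes were above 0 on all arrays, because *grim* probe RE28551 turned to −0.013 on array B, and 20.8% of all probes were. With each clone library centred the count was 4, since *grim* probe Duke_25 turned to −0.034 on array B and *Dronc* lay exactly at the median of its library on array C. The genes were picked with earlier results of these arrays known, so the count is a description.

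**Figure D2:**
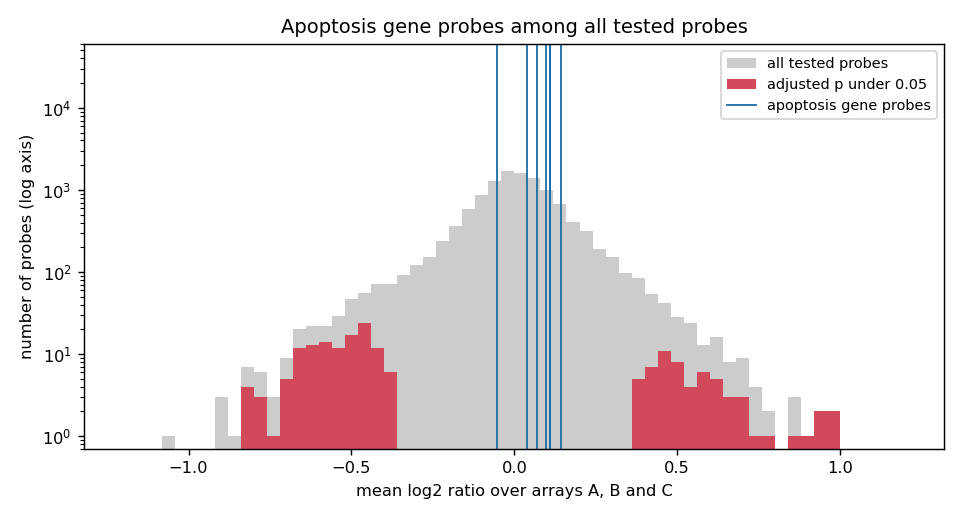
Number of tested probes (vertical, log axis) by mean log2 ratio over arrays A, B and C (horizontal), with probes at a limma adjusted p under 0.05 in red and the 7 apoptosis gene probes as vertical lines. The lines lie between −0.053 and 0.14 in the centre of the distribution, and the calls begin at 0.37 from 0 on either side (5 probes beyond 1.2 are not drawn).

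The intervals show which differences these arrays allow. The 95% intervals of all 7 probes included a ratio of 1, and none reached below 0.874 (*Dcp-1*) or above 1.23 (*grim* probe Duke_25). These bounds hold for each probe alone, are not adjusted for the number of probes, and take the moderated variance and the deposited scale as given. With its own standard error, the *skl* probe would have needed a ratio of at least 1.29, or its inverse, to pass the test, and the *grim* probe Duke_25 one of 1.34. The other 5 probes lay between these values. Differences smaller than that were not detectable as calls with 3 arrays, so the test does not show that the genes were unchanged. *Gadd45*, a stress-inducible gene, is named because it was called on these same arrays, so its call is no separate check of the test. Its probe RH70774 had log2 ratios of 1.10, 0.63 and 0.83 on arrays A, B and C. This probe passed (0.85 ± 0.24, SD, n = 3, limma adjusted p = 0.0441), but no call was left without array A or without array B. The other *Gadd45* probe, RE18426, had 0.46, 0.32 and 0.20 and did not pass (0.32 ± 0.13, SD, n = 3, limma adjusted p = 0.0906). The probes of *Gadd45* thus differed in size. The values of RH70774 lay above 0.24, the highest value of any apoptosis gene, on 3 arrays, and those of RE18426 on arrays A and B.

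**Figure D3:**
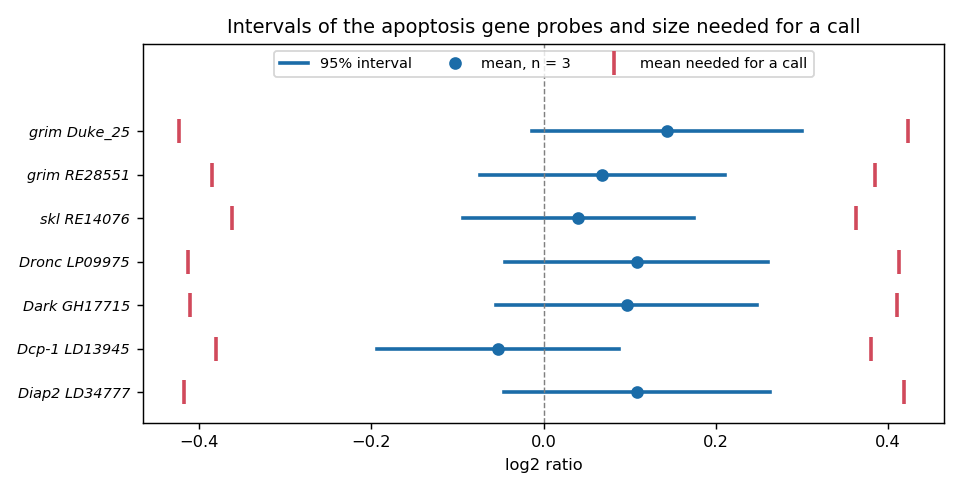
Mean log2 ratio (points) and 95% interval from limma (bars) of the 7 apoptosis gene probes, n = 3 arrays, with red ticks at the mean that each probe would have needed, at its own standard error, to pass an adjusted p of 0.05. All 7 intervals include 0 and end short of the ticks, which lie between 0.36 and 0.42 from 0.

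Spread and clone source were also compared with the rest of the array. The median SD over arrays was 0.082 for the 7 probes and 0.11 for all tested probes. The probes came from 5 clone collections, whose median log2 ratios ran from −0.030 (GH, the library of the *Dark* probe) to 0.027 (Duke, that of a *grim* probe). The GH library held 63 of the 123 low calls, among 2162 tested probes. Of its probes 17.3% had a ratio above 1 on 3 of 3 arrays, and the *Dark* clone was among these. Spots carrying plant genes, which should bind no fly RNA, had a median log2 ratio of −0.23 over 119 spots, further from 0 than the mean of any apoptosis gene. They spread widely, from −1.18 at the 5% point to 0.15 at the 95% point, and what sets their ratio was not tested. No spot intensities were used here, so how far each apoptosis probe stood above background is unknown.

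Of 49 other genes of cell death and of the clearance of dead cells, listed by their textbook role, 36 were measured. None had a high or a low call at an adjusted p of 0.05 over all probes in limma. Their gene means were above 0 in 18 and below 0 in 18, with a median log2 ratio of −0.0039, and 5 of 36 had an unadjusted p under 0.05 (*wts*, *Ced-6*, *uta*, *Drep2* and *AIF*). Over all gene means that share was 18.4%, so the count does not exceed the background, and the values of these 5 genes below are a description. Over all genes 49.9% of gene means were above 0.

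Of the other caspases 2 of 4 were measured. *Strica*, a caspase with a long prodomain, had a mean log2 ratio of −0.20 ± 0.20 (SD, n = 3), and *Dredd*, the caspase of the Imd pathway, had −0.0098 ± 0.11 (SD, n = 3). Of the Bcl-2 family and mitochondrial factors 5 of 7 were measured, and they ran from −0.17 for *AIF*, a mitochondrial flavoprotein gene, to 0.15 for the Bcl-2 family gene *Buffy*. Both probes of *AIF* lay below 0 on 3 arrays, and its gene mean was −0.17 ± 0.12 (SD, n = 3; limma adjusted p = 0.270). Of the IAP family and ubiquitin factors 5 of 7 were measured, and they ran from −0.21 for *Bruce*, a giant ubiquitin-conjugating enzyme with an IAP domain, to 0.088 for *Det*, the fly survivin. *Bruce* had log2 ratios of −0.34, −0.32 and 0.023 on arrays A, B and C, so array C stood apart.

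Among upstream regulators 12 of 14 were measured, and their median was −0.0053. *wts*, a kinase of the Hippo pathway, which limits expression of *Diap1*, had log2 ratios of 0.49, 0.53 and 0.29 on its probe SD19495 (0.44 ± 0.13, SD, n = 3; limma adjusted p = 0.0581). A re-amplified spot of the same clone lay at 0.023 ± 0.039 (SD, n = 3), so spots of 1 clone did not agree. The SD19495 probe passed in limma with arrays scaled to a common spread, with quantile normalization and with array weights. It was the only pathway probe to do so under those settings. Calls over all 11887 tested probes numbered 206, 224 and 441 under the same settings in turn, against 184 without them. The passing of 1 pathway probe there is a description. *p53*, a transcription factor that can induce *rpr*, had a gene mean of −0.013 ± 0.047 (SD, n = 3). The TNF ligand gene *egr* had −0.095 ± 0.038 (SD, n = 3). Of its receptor genes, *wgn* had 0.068 ± 0.043 (SD, n = 3). The other, *grnd*, had 0.21 on array A and −0.0072 on array C. On array B *grnd* was at the floor of the deposited table, a ratio of 0.01, which by itself sets its mean of −2.15.

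DNA fragmentation genes were measured in 4 of 6 cases. *Drep2*, of the family of DNA fragmentation factors, had −0.42 ± 0.17 (SD, n = 3; LD32009; limma adjusted p = 0.0732) on one clone and 0.011 ± 0.065 (SD, n = 3; GM07741) on another. Its clones thus differed by more than their spread between arrays. *Acn*, which encodes Acinus, had the highest mean of this list at 0.089. Engulfment genes were measured in 8 of 11 cases, with a median of 0.030. *Ced-6*, an adaptor of the engulfment receptor Draper, had log2 ratios of 0.25, 0.099 and 0.37 (0.24 ± 0.14, SD, n = 3; limma adjusted p = 0.160 over gene means). *uta*, or undertaker, named *rtp* in the reference, had −0.27, −0.33 and −0.14 (−0.25 ± 0.10, SD, n = 3; limma adjusted p = 0.118 over gene means). The receptor gene *drpr* itself had −0.026 ± 0.065 (SD, n = 3).

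**Figure D4:**
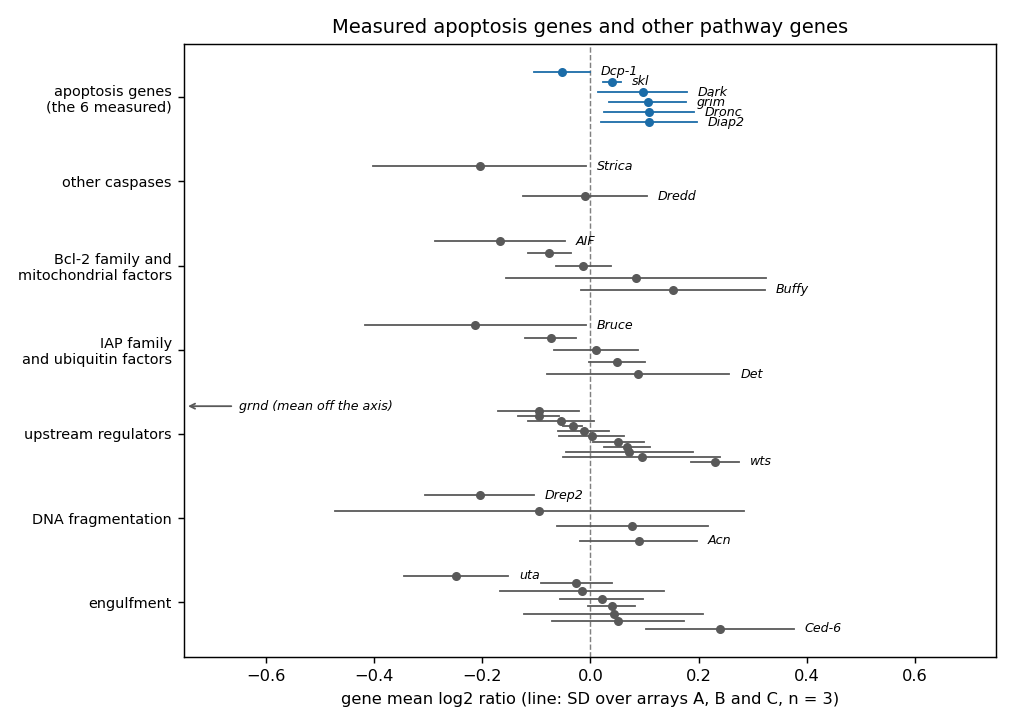
Gene mean log2 ratio (points) with SD over arrays A, B and C (lines, n = 3) for the 6 measured apoptosis genes, in blue, and 36 other pathway genes in 6 lists, with the highest and lowest of each list named. The apoptosis genes lie between −0.053 and 0.11, and the other genes spread to both sides of 0 from −0.25 (*uta*) to 0.24 (*Ced-6*), apart from *grnd*, whose mean of −2.15 is off the axis.

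Markers of cell types were set beside these values. Haemocytes, the blood cells that take up dying cells, were represented by 8 of 9 listed markers. They had 0 calls and a median log2 ratio of 0.020 (range −0.14 to 0.20). The lowest limma adjusted p of their probes was 0.0667, for 1 of the 3 probes of *NimC1*. The gene mean of *NimC1* was 0.11 ± 0.14 (SD, n = 3, limma adjusted p = 0.495 over gene means). The 5 measured of 6 epidermal markers had a median of 0.032 (range −0.39 to 0.20) and 0 calls. Among them *shg*, the E-cadherin gene, had a gene mean of −0.39 ± 0.21 (SD, n = 3; limma adjusted p = 0.101) and *Ddc*, the dopa decarboxylase gene, −0.24 ± 0.09 (SD, n = 3; limma adjusted p = 0.126), both below 0 on 3 of 3 arrays. The other 3 measured epidermal markers had gene means above 0, namely *ple* (0.20), *grh* (0.055) and *knk* (0.032). The 2 of 5 muscle markers had a median of 0.064 and 0 calls, and the 4 of 5 markers of neurons and glia −0.057 and 0 calls. *elav*, the neuronal marker with the lowest mean, had log2 ratios of −0.54, −1.25 and 0.13, taking arrays A, B and C in turn. Ratios do not show whether a marker was expressed, so the labelled tissue could not be checked by marker level, and the part of cell composition in the apoptosis gene ratios was not tested.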

How the data were processed

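RNA of wounded and unwounded embryos was compared on 3 arrays with 2 colours. Per the labels, RNA was extracted with Trizol and RNeasy and labelled by amino-allyl reverse transcription. The deposited table has 12144 rows of negative values with medians of −1.001, −1.01 and −0.997 on arrays A, B and C and a highest value of −0.01. They were read as another unit than a log ratio, namely minus 1 times a linear ratio normalized by the authors to about 1, with a floor of 0.01. This was inferred from the deposited values, and the sources used here do not give the scanner, background correction or normalization.

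The 160 control spots (128 plant, 32 fly genomic) were left out, and 11887 of the remaining 11984 probes, those measured on each array, were tested. Symbols came from the platform annotation, updated by Entrez identifier (9746 probes; 171 kept an older name). Of the tested probes 9839 had 1 symbol, 620 several and 1428 none. A model with an intercept alone was fitted to the log2 ratios in limma 3.58.1 (R 4.3.3), with Benjamini-Hochberg adjustment at 0.05. The fit was tested on simulated independent noise with added changes, all larger than the mean of any apoptosis gene. That simulation held no dye, clone library or array effect, so it cannot show how the fit behaves with them. Errors are SD over arrays, whose number limits the precision. There was 1 group of arrays. Intervals are 95%.

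Members and lists were chosen with earlier results of these data known. Text names all member genes, and pathway genes with a probe past the threshold, a gene mean at an unadjusted p under 0.05 or the highest or lowest mean of their list. *p53*, *egr*, *wgn*, *drpr*, *NimC1*, *shg*, *Ddc* and *elav* were chosen after their values were seen. *Gadd45* was named because it was called on these arrays, and *ple*, *grh* and *knk* complete the measured epidermal list. Alternatives changed centring, scaling, quantile normalization, moderation, array weights, control spots, floor and missing values, clone libraries, the linear scale, the threshold, probes with several symbols, the sign, and each array left out. Coordinates are not printed because the sources used here name no genome build for the array, and no sequences were used.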

Additional observations from a re-analysis of the deposited data

How the results depend on the processing

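None of the 7 apoptosis gene probes passed under any of the alternatives run, in limma and with 0 at an unadjusted p under 0.05, apart from *grim* probe Duke_25, which was under 0.05 unadjusted with array weights and without array B. Leaving the turned sign aside, the 6 gene means kept their direction in all 60 values under 10 alternatives, with a lowest limma adjusted p of 0.260. Many of these outcomes were fixed in advance. Leaving out or weighting arrays could not turn the sign of the 5 genes that lay above 0 on each array. The settings for floor values and for missing values left all 6 gene means as they were. The count of 60 is therefore a description. Leaving out 1 array gave 0.075 to 0.14 for *grim*, 0.033 to 0.049 for *skl*, 0.082 to 0.16 for *Dronc*, 0.053 to 0.13 for *Dark*, −0.082 to −0.035 for *Dcp-1* and 0.057 to 0.13 for *Diap2*. If the ratio runs the other way the gene means become −0.11 for *grim*, −0.040 for *skl*, −0.11 for *Dronc*, −0.097 for *Dark*, 0.053 for *Dcp-1* and −0.11 for *Diap2*, by construction. Calls over all probes were 184, against 206 with scaled arrays and 224 with quantile normalization. They numbered 441 with array weights, 683 at an adjusted p of 0.10, 91 with only probes of 1 symbol, 0 on the linear ratio (limma; 2168 at an unadjusted p under 0.05), 0 with each clone library centred (2197) and 0 to 1 with 1 array left out (1307 to 2376); the cause was not tested. Pathway genes called were 0, against 1 with scaled arrays, 1 with quantile normalization, 1 with array weights (*wts* each time) and 2 at an adjusted p of 0.10 (*wts* and *Drep2*). Wounded and unwounded embryos were paired within each array by its 2 colours, and the test of the ratios used that pairing. With 1 group of arrays there was no further pairing between arrays. Without spot intensities no filter on dim probes could be run.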
